A study of Homo sapiens with 12 samples.

Results

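MDA-MB-231 cells treated with digoxin were compared with cells given the vehicle DMSO, using 6 of the 12 arrays of the series. The members were chosen by sample title, 3 arrays for digoxin and 3 for DMSO, and all 11963 genes with a probe set annotated to exactly 1 symbol were tested. MDA-MB-231 is an established human line of triple-negative breast cancer with mesenchymal features. All cells were grown in DMEM with serum and antibiotics and exposed for 24 h. The digoxin group received the compound, the rotenone and manassantin groups, used here only to test where digoxin differed, received those compounds, and the DMSO group received the vehicle. The sample titles name digoxin and the series' design text names digitoxin, a closely related cardiac glycoside, so which of them the cells received cannot be told apart here. The labels give no dose, oxygen level or number of separate cultures, and p-values therefore measure only the spread between these arrays, which may be technical.

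Cardiac glycosides bind the alpha subunit of the sodium pump, the membrane ATPase that exports sodium and imports potassium, and block it. Sodium then builds up in the cell, potassium is lost, and calcium can rise because sodium-calcium exchange depends on the sodium gradient. In cultured human cells these compounds are known to set off immediate-early genes through calcium and kinase signalling, and potassium loss is known to slow protein synthesis. Many immediate-early and cytokine mRNAs are short-lived, as their proteins act in brief bursts and their transcripts carry elements that direct rapid decay.

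The promoters below belong to the genes with the 4 largest rises, to CXCL2 and CXCL1 (rises 8 and 13) and to the gene with the largest fall. CXCL2 and CXCL1 were added by choice, with the results known. The promoters are therefore examples and no test of any motif. Each runs from 250 bases before to 50 bases after the annotated start (RefSeq, GRCh38.p14), 5′ to 3′ on the strand of the gene, with motif matches in capitals. They lie at chr5:138465229-138465528 (EGR1, + strand), chr4:73740319-73740618 (CXCL8, +), chr19:55370414-55370713 (IL11, -), chr7:22726950-22727249 (IL6, +), chr4:74099146-74099445 (CXCL2, -), chr4:73869143-73869442 (CXCL1, +) and chr2:208254409-208254708 (IDH1, -). The last is the gene with the largest fall and stands for contrast.
EGR1: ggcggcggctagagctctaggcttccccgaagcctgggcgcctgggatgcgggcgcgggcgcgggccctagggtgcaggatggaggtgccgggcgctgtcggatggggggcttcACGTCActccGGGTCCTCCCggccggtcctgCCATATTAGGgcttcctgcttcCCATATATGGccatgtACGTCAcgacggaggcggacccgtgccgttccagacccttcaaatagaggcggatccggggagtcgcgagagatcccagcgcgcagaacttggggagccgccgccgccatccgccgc
CXCL8: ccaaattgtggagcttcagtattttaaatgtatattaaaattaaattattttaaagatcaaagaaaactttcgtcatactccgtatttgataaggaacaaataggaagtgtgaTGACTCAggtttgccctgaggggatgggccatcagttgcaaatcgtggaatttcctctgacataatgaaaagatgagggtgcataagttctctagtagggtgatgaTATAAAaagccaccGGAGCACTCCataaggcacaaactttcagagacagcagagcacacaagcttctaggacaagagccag
IL11: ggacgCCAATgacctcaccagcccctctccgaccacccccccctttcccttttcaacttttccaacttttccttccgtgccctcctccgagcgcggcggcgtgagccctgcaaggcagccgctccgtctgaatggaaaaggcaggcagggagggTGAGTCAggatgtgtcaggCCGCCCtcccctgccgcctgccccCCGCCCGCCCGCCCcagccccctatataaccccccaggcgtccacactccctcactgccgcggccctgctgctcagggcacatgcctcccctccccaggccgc
IL6: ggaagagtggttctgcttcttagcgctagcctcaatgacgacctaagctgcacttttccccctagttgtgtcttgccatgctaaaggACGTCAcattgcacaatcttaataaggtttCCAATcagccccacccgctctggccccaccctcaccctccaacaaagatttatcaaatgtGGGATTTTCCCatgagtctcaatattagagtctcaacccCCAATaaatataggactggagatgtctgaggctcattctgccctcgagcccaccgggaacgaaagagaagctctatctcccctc
CXCL2: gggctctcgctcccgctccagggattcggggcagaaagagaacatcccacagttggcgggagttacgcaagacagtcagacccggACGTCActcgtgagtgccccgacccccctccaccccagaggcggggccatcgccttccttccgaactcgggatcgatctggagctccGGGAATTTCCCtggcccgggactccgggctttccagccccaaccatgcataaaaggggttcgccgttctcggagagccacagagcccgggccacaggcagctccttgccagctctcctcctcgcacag
CXCL1: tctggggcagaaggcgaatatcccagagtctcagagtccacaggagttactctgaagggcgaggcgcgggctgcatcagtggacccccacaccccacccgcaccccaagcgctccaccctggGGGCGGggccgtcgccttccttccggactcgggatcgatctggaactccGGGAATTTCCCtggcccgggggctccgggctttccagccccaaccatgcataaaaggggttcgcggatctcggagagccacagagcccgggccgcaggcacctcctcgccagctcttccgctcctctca
IDH1: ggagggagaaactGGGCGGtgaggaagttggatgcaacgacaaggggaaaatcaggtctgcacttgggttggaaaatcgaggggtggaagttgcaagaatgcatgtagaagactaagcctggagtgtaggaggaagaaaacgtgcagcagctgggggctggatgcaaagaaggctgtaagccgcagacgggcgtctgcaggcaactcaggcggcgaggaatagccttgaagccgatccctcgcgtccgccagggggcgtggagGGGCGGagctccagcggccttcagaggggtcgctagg
The motifs searched on both strands were the TATA box core TATAAA, the AP-1 site TGANTCA bound by FOS and JUN proteins, the cyclic AMP response element (CRE) core TGACGT, the GC box GGGCGG, the CCAAT box, the NF-kB site and the CArG box of serum response factor. Matches may overlap, as the GC boxes of IL11 and the NF-kB matches of IL6, CXCL1 and CXCL2 do. The EGR1 promoter held CArG boxes at -105 to -96 and -83 to -74 and CRE cores at -136 to -131 and -67 to -62, counted from the start. IL6 held a CRE core at -163 to -158 and NF-kB matches between -73 and -63. CXCL2 and CXCL1 carried NF-kB matches at nearly the same place, from -78 to -68 in CXCL2 and from -79 to -69 in CXCL1. CXCL8 held a TATA box core at -31 to -26 and an AP-1 site at -137 to -131, and IL11 an AP-1 site at -96 to -90. Also matched were NF-kB in EGR1 and CXCL8, GC boxes in IL11 and CXCL1, CCAAT boxes in IL11 and IL6, and a CRE core in CXCL2. In IDH1 only GC boxes matched.

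Promoters were found for 152 of the 172 genes that were at least 2-fold higher with digoxin, for 455 of the 555 at least 2-fold lower, and for 9562 of all 11963 genes. The CRE core was present in 20.4% of the promoters of 2-fold higher genes and in 7.47% of those of 2-fold lower genes, against 10.9% over all genes measured. The TATA box core was present in 15.1% and 5.93%, against 8.3%, and the CCAAT box in 48% and 39.3%, against 37.3%. AP-1 sites were found in 7.24% and 4.4%, against 5.43%, and CArG boxes in 1.97% and 0.879%, against 1.28%. NF-kB matches were no more frequent among the higher genes, at 29.6%, than among the lower genes, at 34.1%, or over all genes, at 36.5%. The NF-kB pattern was thus common. It matched GGGTCCTCCC in EGR1 and GGAGCACTCC in CXCL8, but not the stretch ggaatttcct in CXCL8. Its share cannot tell which promoters hold a working site. GC boxes were found in 69.7% and 70.1%, against 63.1%. Over all 27305 promoters of the annotation, the CRE core was found in 8.32% and the TATA box core in 12%. The 2-fold higher genes were also shorter, with a median span of 24596 bases against 46734 bases for the 2-fold lower genes and 28857 bases over all genes. These shares are descriptions of a fixed window, and a match is not evidence of binding.

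**Figure D1:**
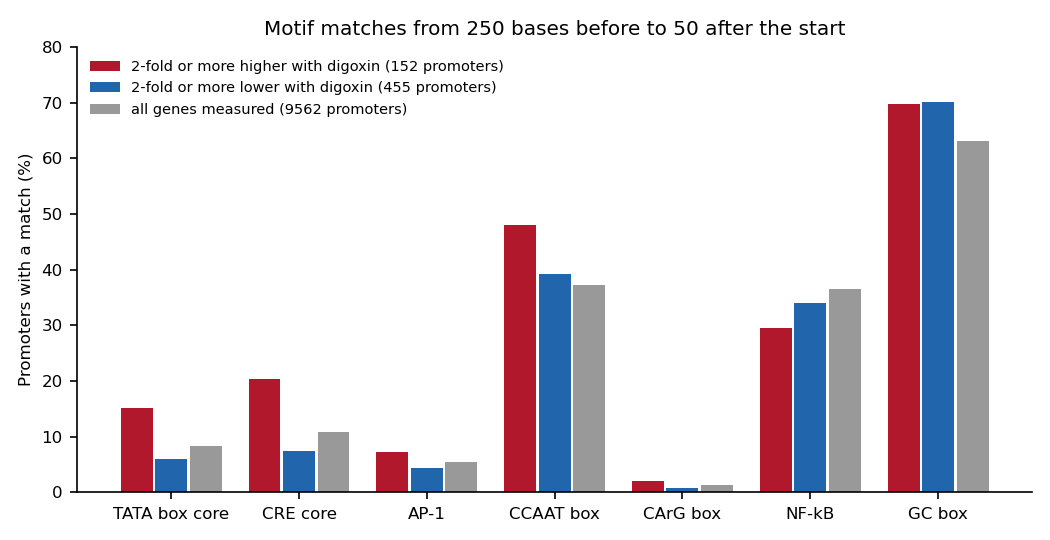
Share of promoters with at least 1 match (%, vertical axis) for each motif (horizontal axis), for genes at least 2-fold higher with digoxin (152 promoters), at least 2-fold lower (455) and all genes measured (9562). The bars for the CRE core and the TATA box core stand higher for the genes that rose than for the genes that fell, and the NF-kB bars do not.

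All values are log2 intensities of a gene's brightest probe set, and a difference is the digoxin mean minus the DMSO mean with its standard error (SE) from limma. A gene was called where the Benjamini-Hochberg adjusted p was under 0.05. Digoxin called 54.8% of the 11963 genes, 3347 higher (28.0%) and 3214 lower (26.9%). With each array centred on its median the split was 5002 higher and 2689 lower, and the median of all genes moved from 0.0651 to 0.1515. Small changes can therefore take either sign with the scaling. The count of members called in a group below is read against the shares of the main fit. A count with centred arrays is read against 5002 higher and 2689 lower, and its median against 0.1515. Large changes leaned downwards: 172 genes rose 2-fold or more (1.44%) and 555 fell 2-fold or more (4.64%). At 4-fold there were 21 and 45 genes. In every one of these 2-fold genes the 3 digoxin arrays lay outside the range of the 3 DMSO arrays, as they did in 61.9% of all genes.

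Genes in the lower 40% by mean level, under a log2 value of 5.747, are called dim here. Of the 4785 dim genes, 23.4% were called higher and 9.7% lower, with a median difference of 0.12. Of the 7178 other genes, 31.0% were called higher and 38.3% lower, with a median of -0.03. Rises outnumbered falls among dim genes and falls outnumbered rises among the others. A list with few dim members is therefore also read against the 31.0% higher and 38.3% lower of the other genes. Of the larger changes, 17 of the 172 genes that rose 2-fold were dim, as were 100 of the 555 that fell.

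**Figure D2:**
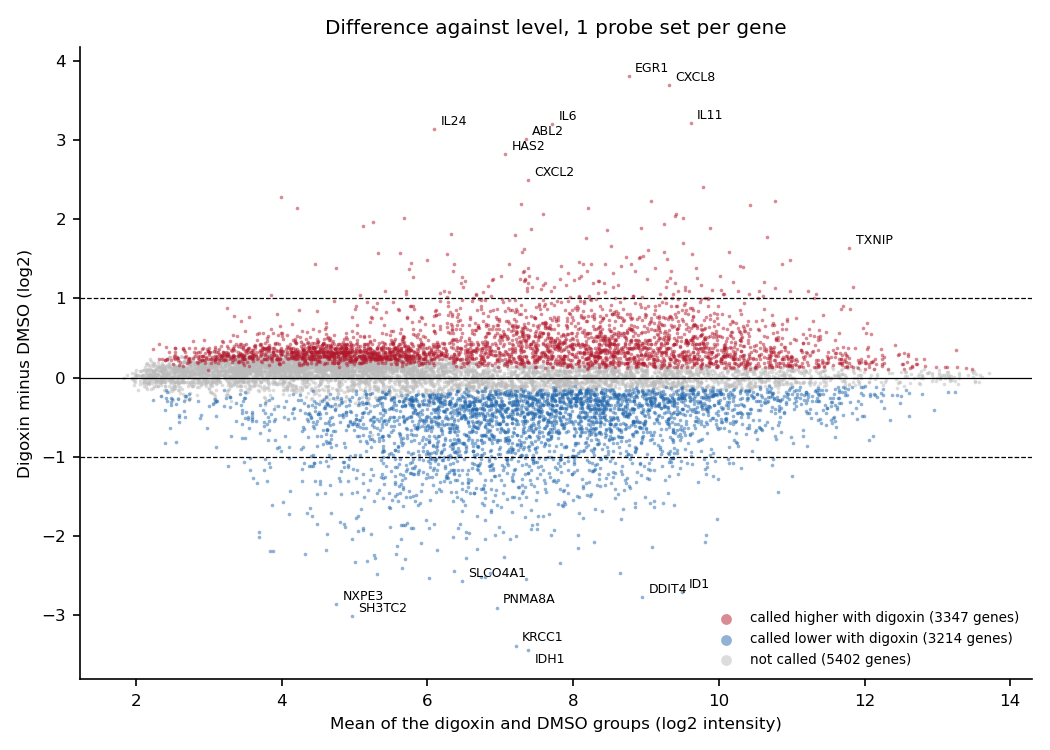
Difference between digoxin and DMSO (log2, vertical axis) against the mean of both groups (log2 intensity, horizontal axis), 1 point per gene, with dashed lines at 2-fold. The 555 genes 2-fold lower outnumber the 172 genes 2-fold higher.

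The digoxin arrays stood apart from all others. On the first principal component, which held 77.3% of the variance, the digoxin arrays lay at 37.3 to 41.6 and the DMSO arrays at -14.6 to -13.8, with rotenone and manassantin between -18.3 and -8.1. Array medians were 5.881 to 5.911 with digoxin and 5.978 to 5.987 with DMSO. The 18S rRNA control averaged 10.08 ± 0.163 with digoxin and 10.40 ± 0.315 with DMSO (SD, n = 3 each), and the 3' minus 5' difference of the dap spike-in 2.745 ± 0.135 and 2.493 ± 0.394. The arrays of the groups overlapped for both measures, and with the 18S control as a covariate 6011 genes were called. Of 7 markers of the mesenchymal-like line, 6 (VIM, CD44, EGFR, CAV1, AXL and MSN) lay above the dim threshold and SPARC below it. Of receptor and luminal genes that the line should lack or hold at low levels, PGR, FOXA1 and CDH1 were dim, whereas GATA3 (8.24 ± 0.061 in digoxin cells and 7.99 ± 0.084 in DMSO cells) and ERBB2 (7.48 ± 0.085 and 7.96 ± 0.053) were not. Dim too were the leukocyte markers PTPRC, CD3D and CD14 and the endothelial markers PECAM1, CDH5 and VWF, but not the stromal markers ACTA2 and COL1A1. ESR1, with 6.38 ± 0.126 in digoxin cells and 6.08 ± 0.088 in DMSO cells (SD, n = 3 each), and the epithelial genes EPCAM, KRT8, KRT18 and KRT19 lay above the threshold, which is a rank among genes and not a test of presence.

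The largest rise was of EGR1, an immediate-early transcription factor. EGR1 read 10.91, 10.36 and 10.73 on the digoxin arrays, against 6.95, 6.94 and 6.69 on the DMSO arrays, a difference of 3.81 ± 0.15 (14-fold, adjusted p = 1.57e-09). Every digoxin array lay far above every DMSO array, and the gene's other probe set differed by 3.21. The next was CXCL8, the neutrophil chemokine interleukin-8, with 10.99, 11.15 and 11.34 in digoxin cells, against 7.33, 7.54 and 7.55 in DMSO cells (3.69 ± 0.098, adjusted p = 1.47e-10). IL11, a cytokine of the IL6 family, read 11.07, 11.25 and 11.33 with digoxin, against 7.71, 8.14 and 8.17 with DMSO, and IL6 itself 9.22, 9.41 and 9.31, against 6.16, 6.02 and 6.15. These were differences of 3.21 ± 0.15 and 3.2 ± 0.088, and in neither gene did the groups approach each other. IL24, another secreted cytokine, rose by 3.14 ± 0.13 and lay under the dim threshold in DMSO cells, at 4.49, 4.72 and 4.37.

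Among the other rises, ABL2, a non-receptor tyrosine kinase that acts on the actin cytoskeleton, read 8.78, 8.88 and 8.9 with digoxin, against 5.82, 5.84 and 5.86 with DMSO (3.01 ± 0.066, adjusted p = 5.01e-11). HAS2, a synthase of hyaluronan, rose by 2.82 ± 0.11. PPP1R15A, the stress-induced phosphatase subunit that reverses phosphorylation of eIF2alpha, read 10.95, 11 and 11.01 with digoxin, against 8.57, 8.66 and 8.51 with DMSO. ADM, the vasodilator peptide adrenomedullin, read 11.82, 11.9 and 11.95, against 9.57, 9.67 and 9.75. Their differences were 2.41 ± 0.083 and 2.23 ± 0.075, among genes already bright in DMSO cells. CEBPD, a transcription factor of acute inflammation, rose by 2.07 ± 0.068, the nucleoporin gene NUP58 by 2.14, the Golgi transport gene GOLT1B by 2.04 and the kinase gene STK17B by 2.07. AVPI1 rose by 2.23 ± 0.061. SLC35F5 (2.28 ± 0.19), DIAPH3 (2.14 ± 0.13) and the histone gene H2BC21 (2.02 ± 0.085) completed the 20 largest rises that this text names, and all of them were dim.

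The largest fall was of IDH1, the cytosolic isocitrate dehydrogenase, which makes NADPH. IDH1 read 6.04, 5.46 and 5.47 in digoxin cells, against 9.16, 9.1 and 9.05 in DMSO cells, a difference of -3.44 ± 0.12 (adjusted p = 7.98e-10), so that DMSO cells stood 10.9-fold above digoxin cells. KRCC1 read 6.01, 5.23 and 5.32, against 9.08, 8.77 and 8.84 (-3.38 ± 0.18). In both genes digoxin replicate 1 was the highest of the digoxin arrays and still lay well below every DMSO array. PNMA8A fell by 2.90, with 5.53, 5.61 and 5.36 in digoxin cells, against 8.35, 8.43 and 8.43 in DMSO cells.

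DDIT4, an inhibitor of mTORC1 that is induced by stress and low oxygen in many cells, was lower here, at 7.88, 7.45 and 7.36 with digoxin, against 10.37, 10.43 and 10.2 with DMSO (-2.77 ± 0.11). ID1, an inhibitor of basic helix-loop-helix factors and a target of BMP signalling, had the smallest adjusted p of the genes named, 2.96e-11, with 8.23, 8.12 and 8.1, against 10.82, 10.87 and 10.85. SLCO4A1, an organic anion transporter, fell by 2.57 ± 0.096, and CRYZ, a quinone reductase, by 2.54 ± 0.068. The phospholipid flippase gene ATP10D (-2.52), the phosphoinositide phosphatase gene MTMR4 (-2.51), the zinc finger gene ZNF512B (-2.46), the ubiquitin ligase adaptor gene DET1 (-2.40) and CSTF3, a subunit of the mRNA cleavage stimulation factor (-2.34), followed. PPP1R3D, a glycogen-targeting phosphatase subunit, fell by 2.48. The dim genes SH3TC2 (-3.01), NXPE3 (-2.86), ALDH5A1 (-2.33) and FPGT (-2.31) were also among the 20 largest falls. The other probe set of ALDH5A1 differed by -0.19 and was not called.

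**Figure D3:**
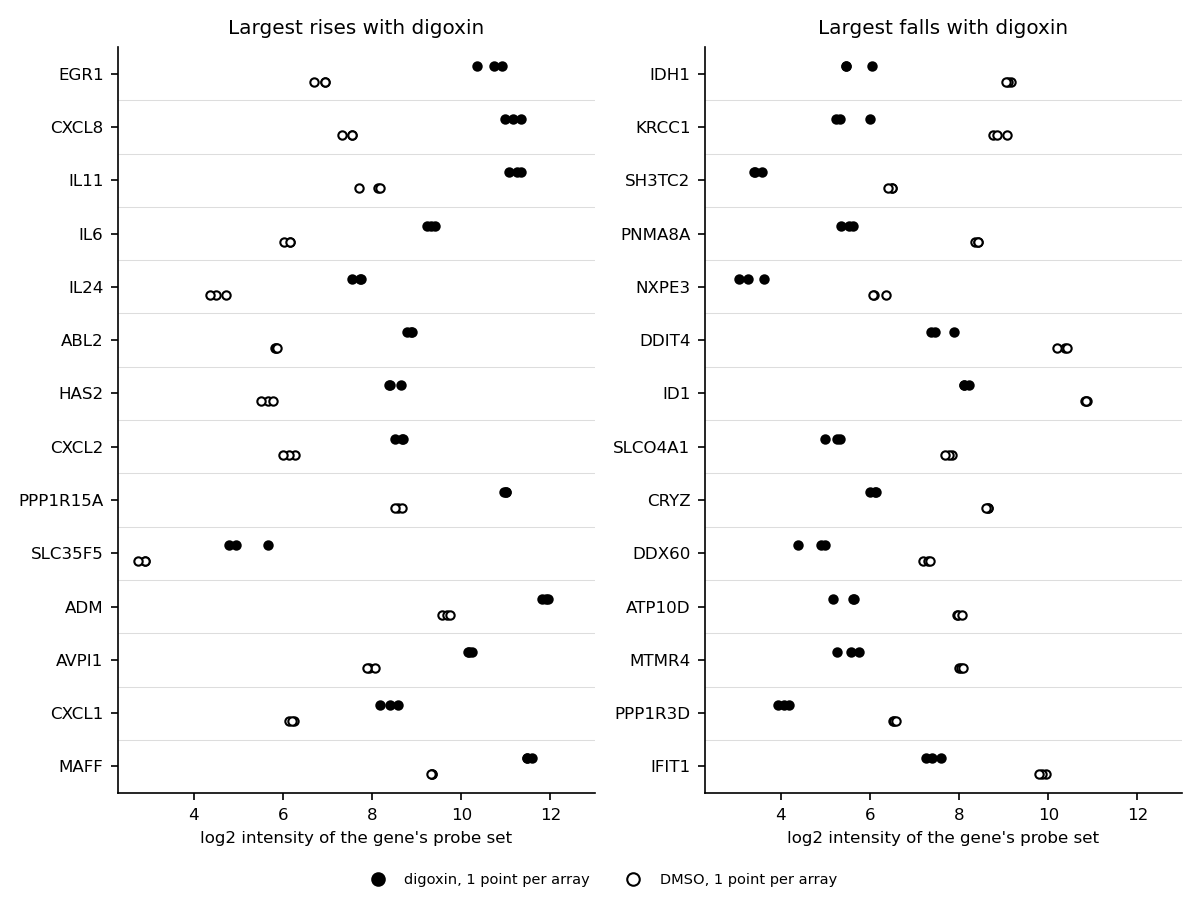
log2 intensity (horizontal axis) on each digoxin array (filled) and each DMSO array (open) for 14 genes with the largest rises (left) and 14 with the largest falls (right). The filled and open points are apart in every gene drawn because only genes without overlap were eligible.

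Of the sodium pump itself, 10 regulatory subunit genes were measured and the alpha subunits were not analysed here. ATP1B3, a beta subunit needed to bring the pump to the membrane, rose by 0.38 ± 0.047 (adjusted p = 1.87e-05), with 10.7, 10.83 and 10.75 in digoxin cells, against 10.36, 10.4 and 10.37 in DMSO cells. ATP1B1 read 11.56, 11.51 and 11.49, against 11.31, 11.28 and 11.3 (0.22 ± 0.045). The groups did not overlap in either beta subunit. Among the FXYD proteins, which tune the pump's affinity for ions, FXYD5 (0.16 ± 0.06) and the dim FXYD6 (0.24 ± 0.079) were called. Both calls were lost without DMSO replicate 2 or without digoxin replicate 1, and FXYD5 without any of DMSO replicate 3, digoxin replicate 2 and digoxin replicate 3. FXYD1 (0.22), FXYD2 (0.14), FXYD3 (0.13), FXYD7 (0.1), ATP1B2 (0.1) and ATP1B4 (-0.0) were not called, and 6 of the 10 were dim. The list had 4 members higher (40%) and 0 lower, against 28.0% and 26.9% of all genes. With quantile normalization 3 were higher and with centred arrays 6. Its median was 0.148, against 0.0651 over all genes and 0.12 over dim genes.

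Carriers that use the sodium gradient moved in both directions, 9 of 25 higher and 6 lower. The dim taurine carrier SLC6A6 rose by 1.1 ± 0.1, the neutral amino acid carrier SLC38A2 by 1.01 ± 0.057, the phosphate carrier SLC20A2 by 0.96 and the bicarbonate carrier SLC4A4, dim, by 0.86. SLC38A2 read 11.84, 11.78 and 11.83 with digoxin, against 10.77, 10.86 and 10.78 with DMSO. The myo-inositol carrier SLC5A3 moved the other way, with 7.29, 7.18 and 7.22, against 8.76, 8.85 and 8.7 (-1.54 ± 0.072), and the dim glutamate carrier SLC1A1 fell by 1.84. The other probe set of SLC1A1 differed by 0.1 and was not called. SLC6A6 and SLC5A3, both of which bring in osmolytes, therefore moved apart. In the list of 8 osmotic stress genes 5 were higher and 2 lower. SGK1, a kinase induced by hormones and cell shrinkage that supports sodium transport, rose by 1.94 ± 0.054, with 10.3, 10.12 and 10.19, against 8.26, 8.26 and 8.3. NFAT5, the factor of the response to hypertonicity, rose by 0.78 ± 0.15 and the chaperone gene HSPA4L by 0.55, while CLU differed by -0.27, a call lost without DMSO replicate 1 or without digoxin replicate 2 or 3.

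Potassium and chloride channels and carriers had 4 of 18 members higher and 6 lower, with a median of -0.001, and 8 higher and 6 lower with centred arrays (median 0.085). The chloride exchanger CLCN3 (-1.08), CLIC3 (-0.83), KCTD12 (-0.7) and the calcium-activated potassium channel KCNN4 (-0.67) fell, and the potassium-chloride cotransporters SLC12A4 (0.5) and SLC12A7 (0.46) rose. Genes of calcium handling had 9 of 21 members lower and 4 higher (median -0.052, or 0.034 with centred arrays). CAMK2G, a calcium/calmodulin kinase, fell by 1.38, ATP2B4, a plasma membrane calcium pump, by 1.22, and ITPR1, a calcium release channel, by 1.19. ITPR2, a second such channel, fell by 1.88 on a dim probe set, while another of its probe sets rose by 0.27. The calcineurin subunit PPP3CC rose by 0.49. For ATP2A2, the calcium pump of the endoplasmic reticulum, the brightest probe set was higher by 0.44 and another lower by 1.68, and the mean of its probe sets was -0.47, so no direction is given.

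Immediate-early factors, which calcium and kinase signalling can induce, were mostly higher, though signalling itself was not measured. Of 12 EGR, NR4A and IER genes 10 rose and 0 fell (median 0.497), and of 12 FOS, JUN and related genes 8 rose and 1 fell (median 0.638), against 28.0% of all genes higher. FOS, dim in these cells, read 6.33, 6.12 and 6.26 with digoxin, against 4.39, 4.18 and 4.22 with DMSO (1.97 ± 0.074). FOSL2 read 9.45, 9.32 and 9.38, against 7.51, 7.58 and 7.49 (1.86 ± 0.052), and the small MAF protein gene MAFF 11.48, 11.48 and 11.58, against 9.34, 9.34 and 9.33 (2.18 ± 0.054). These are partners in AP-1-like dimers, and in each the groups were far apart. The stress factor ATF3 rose by 1.63 ± 0.07. JUND, a JUN protein present in resting cells, fell by 0.47, and BACH1 differed by -0.14 (adjusted p = 0.268). NR4A2, an orphan nuclear receptor induced by calcium, rose by 1.44 ± 0.17 with 1 lower digoxin array (7.29, 6.62 and 7.32, against 5.53, 5.73 and 5.65). IER3 rose by 0.87 and IER2 by 0.84.

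Genes whose products can feed back on kinase signalling divided. Of 14 dual-specificity phosphatases and Sprouty genes 7 were higher and 5 lower. DUSP1, which inactivates MAP kinases, rose by 1.89 ± 0.11, the dim DUSP8 by 0.77, the ERK phosphatase DUSP6 by 0.49 and DUSP14 by 0.44. SPRY1, an inhibitor of receptor tyrosine kinase signalling, fell by 1.61 ± 0.084 and DUSP7, also an ERK phosphatase, by 1.2. Krüppel-like factors had 7 of 13 members higher and 2 lower (median 0.406): KLF5 rose by 1.34, KLF10 by 1.11, KLF11 by 0.98 and KLF3 by 0.79, and KLF7 (-0.53) and KLF2 (-0.32) fell. Among regulators of mRNA decay, 9 of 19 were higher and 6 lower. ZFP36, which binds AU-rich elements of cytokine mRNAs, rose by 0.76 ± 0.058, the decapping enzyme gene DCP2 by 0.76, CNOT3 by 0.69 and BTG3 by 0.59. PARN, a poly(A) ribonuclease, fell by 1.22 ± 0.063. HNRNPD, another AU-rich element binder, was lower by 0.53 on its brightest probe set, and its other probe sets ranged between -1.15 and 1.45.

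Secreted inflammatory signals showed a few very large rises on a list otherwise near the low end of the scale. Of 17 chemokines, 13 of them dim, 7 were higher and 1 lower, and 4 and 0 with dim genes left out. CXCL2 read 8.51, 8.68 and 8.69 in digoxin cells, against 6.28, 6.14 and 5.99 in DMSO cells (2.49 ± 0.089), and CXCL1 8.18, 8.39 and 8.57, against 6.13, 6.24 and 6.2 (2.19 ± 0.088). These genes and CXCL3, which rose by 0.91 ± 0.093, encode ligands of the same receptor as CXCL8. CXCL11, an interferon-induced ligand of another receptor, fell by 0.41 and was dim, and CX3CL1 differed by -0.19 (adjusted p = 0.138). Of 21 interleukins and growth factor cytokines, 11 of them dim, 10 were higher and 4 lower. With the dim genes left out 6 of the remaining members were higher. IL12A, dim, rose by 1.57 ± 0.14, while the death ligand TNFSF10 fell by 1.21 ± 0.18 and IL18 by 1.12 ± 0.064.

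The NF-kB system, which drives many of these genes, had 11 of 20 members higher and 5 lower (median 0.304). The rises included its feedback inhibitors. TNFAIP3, the ubiquitin-editing enzyme A20, read 8.07, 8.15 and 8.07 with digoxin, against 6.33, 6.27 and 6.32 with DMSO (1.8 ± 0.052), and the inhibitor gene NFKBIB rose by 1.2 ± 0.066. The subunits RELB (1.07 ± 0.085) and REL (0.97 ± 0.1, dim) rose. The kinase genes IKBKB (-0.84) and IKBKE (-0.53) fell, though another probe set of IKBKB was higher by 0.32. Cytokine receptors and STAT signalling had 6 of 28 members higher and 11 lower (median -0.091). SOCS1, an interferon-induced inhibitor of JAK kinases, fell by 1.51 on a dim probe set, SOCS6 by 1.22 and OSMR, the oncostatin M receptor, by 0.71 ± 0.21, a call lost without digoxin replicate 2 or 3. STAT3, the factor that IL6 and IL11 activate, rose by 0.62 ± 0.056 and IFNGR2 by 0.6. IL1R1 fell by 1.46 on its brightest probe set and its other probe set rose by 0.19.

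Among growth factor pathways, EGFR and its ligands had 5 of 12 members higher and 4 lower. The ligands EREG (0.93 ± 0.074) and HBEGF (0.81 ± 0.058) rose, as did EGFR, with 10.2, 10.17 and 10.19 in digoxin cells, against 9.52, 9.56 and 9.56 in DMSO cells. The related receptors ERBB3 (-0.9, dim) and ERBB2 (-0.48) fell, though the other probe set of ERBB3 was higher by 0.28. NRG1 was higher by 0.33 on its brightest probe set and -0.19 as the mean of its probe sets. In the TGF-beta, BMP, ID and SMAD list, 8 of 29 were higher and 10 lower (median -0.004), and 8 and 8 with centred arrays (median 0.082). All of ID1, ID2 and ID3 fell: ID3 read 8.39, 8.65 and 8.54, against 9.53, 9.48 and 9.46, and ID2 5.89, 5.78 and 6.08, against 6.79, 6.81 and 6.71. SMAD6, an inhibitor of BMP signalling, fell by 1.52 on a dim probe set, though another of its probe sets rose by 0.37. TGFB2 rose by 0.97 ± 0.082 and the stress cytokine GDF15 by 1.25 ± 0.17, with the other probe set of GDF15 at 0.23 and not called.

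YAP and TEAD, the factors of the Hippo pathway, and their targets had 8 of 12 members higher and 1 lower (median 0.535). YAP1 read 9.58, 9.7 and 9.75 with digoxin, against 8.04, 8.25 and 8.18 with DMSO (1.52 ± 0.08), TEAD1 rose by 0.96, and the targets F3, tissue factor, and AMOTL2 rose by 0.9 ± 0.05 and 0.59. WWTR1, the paralogue of YAP1, fell by 0.78 ± 0.066 on its brightest probe set, with its other probe sets between -0.46 and 0.72. The classical target ANKRD1 differed by -0.07 (adjusted p = 0.274). Notch and Wnt genes had 11 of 22 members lower and 5 higher (median -0.164). The receptor FZD1 fell by 1.14, the Notch ligand JAG1 by 1.02, TLE1 by 0.43 and LEF1 by 0.38, and HES1 (0.63) and AXIN1 (0.46) rose. The other probe sets of FZD1 (-0.07), LEF1 (0.06 to 0.11) and HES1 (-0.16 to 0.07) were not called. Of 31 RAS, MAPK and PI3K kinases, ABL2 among them, 13 were lower and 7 higher (median -0.056), and 10 and 9 with centred arrays (median 0.03). Members other than ABL2 included MAPKAPK3 at -0.74, TSC2 and LYN at -0.56 each, PIK3R1 at -0.52 and ARAF at 0.53, all of them called.

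Interferon-stimulated genes had the lowest median of the 64 lists, -0.628 against 0.0651 over all genes, with 27 of 39 members called lower and 4 higher. IFIT1, which binds viral RNA, read 7.59, 7.25 and 7.39 in digoxin cells, against 9.96, 9.87 and 9.8 in DMSO cells (-2.47 ± 0.082). DDX60, a helicase of antiviral sensing, read 4.98, 4.38 and 4.89, against 7.18, 7.3 and 7.35 (-2.53 ± 0.15). HERC6, a ubiquitin ligase gene, fell by 2.44 ± 0.13 and IFIT3 by 1.92 ± 0.075. In these genes the lowest DMSO array lay well above the highest digoxin array. IRF7 (0.35 ± 0.069) and the peptide transporter TAP1 (0.34 ± 0.068) rose, with 2 members called higher without DMSO replicate 3 or without digoxin replicate 2. Against rotenone the median of the list was -0.417 and against manassantin -0.674.

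**Figure D4:**
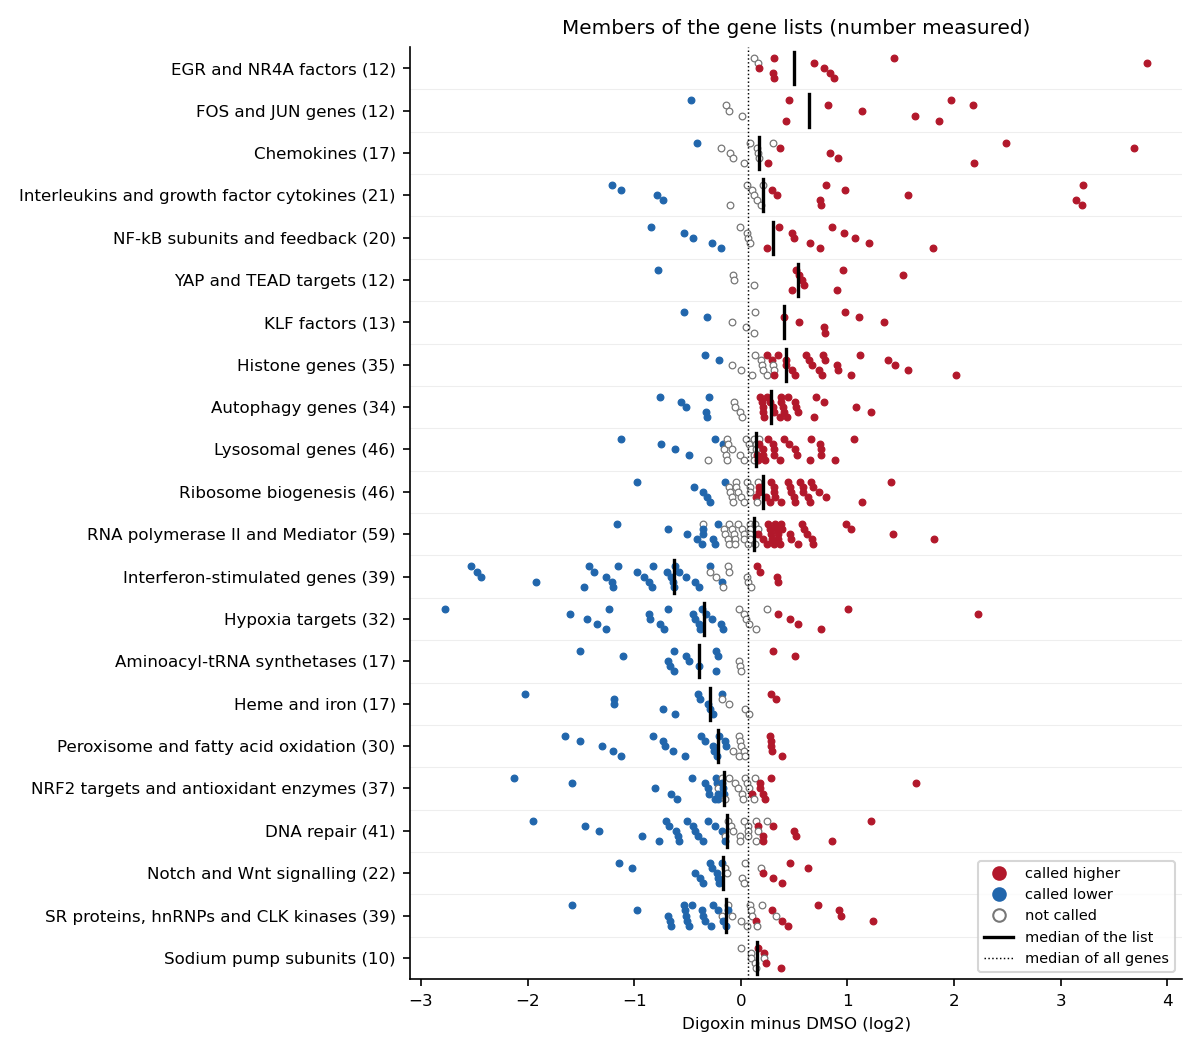
Difference between digoxin and DMSO (log2, horizontal axis) for every measured member of 22 gene lists (vertical axis, number measured in brackets), filled where called, with the median of each list as a bar and the median of all genes, 0.0651, dotted. The median of the interferon-stimulated genes, -0.628, lies furthest to the left, and the EGR, chemokine and interleukin lists hold the points furthest to the right.

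Genes of the cell cycle moved in both directions, with more rises than falls. Of 46 genes of G1/S and DNA replication 23 were higher (50%) and 12 lower (26.1%, median 0.115). Of 40 genes of G2/M and mitosis 19 were higher (47.5%) and 11 lower (27.5%, median 0.098). No member of either list was dim, and of all genes that were not dim 31.0% were higher and 38.3% lower. With quantile normalization the G2/M list had 15 higher and 14 lower (median 0.051). ORC6, RPA2, CDC6 and MCM7, which license or stabilise replication origins and forks, rose by 0.68, 0.68, 0.57 and 0.53, while ORC3 fell by 1.05 and the primase-polymerase subunit POLA1 by 0.92. CDC25A, a phosphatase that activates cyclin-dependent kinases, read 8.91, 8.99 and 9.0, against 7.6, 7.83 and 7.82 (1.22 ± 0.071), and the mitotic kinase AURKB 10.23, 10.31 and 10.2, against 9.25, 9.28 and 9.23 (0.99 ± 0.053). UBE2C (0.69) and CKS1B (0.63) rose, and KIF20A (-0.55) and CCNA2 (-0.44) fell. Cyclins, CDKs and their inhibitors had 13 of 26 members higher and 6 lower, led by CCNL1 (1.08), the inhibitor CDKN1A (0.94) and CCNT1 (0.68), with E2F1 at 0.56. The pocket protein genes RBL2 and RB1, whose products restrain E2F factors, fell by 1.48 ± 0.1 and 0.57 on their brightest probe sets. The other probe set of each was not called, at -0.05 for RBL2 and -0.02 for RB1. Tubulin genes had 8 of 16 members lower and 2 higher (median -0.053). With centred arrays 4 were lower and 5 higher, with a median of 0.034 against 0.1515 over all genes. TUBB2B (dim), TUBG2, TUBG1 and TUBD1 fell by 0.52, 0.49, 0.32 and 0.31, with 4 members lower without digoxin replicate 3, 5 without DMSO replicate 1, and the 2 dim genes TUBB4A and TUBA8 higher.

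DNA repair genes leaned downwards, with 19 of 41 lower (46.3%) and 8 higher (19.5%, median -0.125), and 5 higher without digoxin replicate 3. Only 6 of the 41 were dim, and of all genes that were not dim 38.3% were lower and 31.0% higher. ATM, the kinase that signals double-strand breaks, read 5.48, 5.74 and 5.46 in digoxin cells, against 7.44, 7.49 and 7.6 in DMSO cells (-1.95 ± 0.11). NBN, which recruits ATM to breaks, read 7.84, 7.83 and 7.9, against 9.12, 9.21 and 9.22 (-1.33 ± 0.074). FANCF, dim, fell by 1.46 and BRCA1 by 0.93 ± 0.064, while the recombination genes XRCC3 and RAD54L rose by 1.22 and 0.86. Of 16 p53 target genes 9 were higher and 4 lower. As background, MDA-MB-231 carries a mutant p53, and several of these genes also answer other stress pathways. GADD45B read 10.55, 10.5 and 10.51, against 8.45, 8.5 and 8.54 (2.02 ± 0.044), and GADD45A 11.69, 11.72 and 11.73, against 10.27, 10.21 and 10.2 (1.49 ± 0.052). PPM1D rose by 0.72, and MDM2 (-1.08, dim), TP53I3 (-0.71) and BAX (-0.46) fell, though another probe set of MDM2 was higher by 0.27.

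Genes of cell death also divided. In the BCL2 family 8 of 18 were higher and 5 lower. The survival gene MCL1 rose by 0.62 ± 0.043 and BNIP1 by 0.73, as did the pro-death genes HRK (0.61) and BCL2L11 (0.55), both dim. BNIP3, which promotes mitophagy and is a hypoxia target, read 10.15, 10.01 and 10.1, against 11.53, 11.52 and 11.55 (-1.44 ± 0.051). Of 21 death receptor and caspase genes 9 were lower and 7 higher. CASP6, an executioner caspase, read 7.13, 6.97 and 7.14 with digoxin, against 9.15, 8.97 and 9.08 with DMSO (-1.99 ± 0.071). The adaptors FADD (-0.9), TRADD (-0.82) and RIPK2 (-0.57) fell. CFLAR and XIAP, which block caspases, rose by 1.14 ± 0.054 and 1.1 ± 0.054, the second dim. The 10 other probe sets of CFLAR disagreed, with 3 called higher and 3 lower, between -0.3 and 1.19.

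Histone genes were mostly higher, with 23 of 35 called higher and 2 lower (median 0.421). Of the 35, 23 were dim, and with the dim genes left out 9 of the remaining members were higher. H1-2, a linker histone, read 10.22, 10.47 and 10.47 with digoxin, against 8.93, 9.06 and 9.02 with DMSO (1.38 ± 0.099). The dim H1-4 (1.57) and H3C2 (1.45) rose. Canonical histone genes are close copies of each other, so probe sets may share signal between them. MACROH2A1 fell by 0.34, and H2AZ2 was lower by 0.2 on its brightest probe set and higher by 0.05 as the mean of its probe sets. Chromatin modifiers had 23 of 56 members lower and 19 higher (20 and 20 with centred arrays). EHMT2, a histone H3 lysine methyltransferase, read 5.03, 5.1 and 5.01, against 7.32, 7.13 and 7.22 (-2.18 ± 0.059), while its other probe set differed by -0.19. SMARCA2 (-1.35), KAT2A (-0.88) and HDAC4 (-0.74) fell, and the deacetylase HDAC9 (1.32) and the demethylase KDM6B (0.85) rose.

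The transcription machinery leaned upwards, with 27 of 59 members of RNA polymerase II, its general factors, elongation factors and Mediator higher and 10 lower (median 0.127). AFF4, the scaffold of the super elongation complex, read 7.03, 7.22 and 7.44, against 5.2, 5.59 and 5.47 (1.81 ± 0.13). POLR2D rose by 1.03, CCNH of the factor TFIIH by 0.99, CCNT1 as above, and the dim TAF13 by 1.43. HEXIM1, which holds the elongation kinase P-TEFb inactive, read 8.58, 8.34 and 8.51, against 9.64, 9.62 and 9.66 (-1.16 ± 0.061), and MED7 fell by 0.68. In the splicing list 20 of 39 were lower and 8 higher (median -0.14). With centred arrays 16 were lower and 15 higher, with a median of -0.054 against 0.1515 over all genes. SRSF6 read 8.45, 8.48 and 8.39, against 10.07, 10.02 and 9.99 (-1.58 ± 0.046), and SRSF5 fell by 0.97 and TRA2A by 0.66. CLK4 and CLK1, kinases that phosphorylate SR proteins, rose by 1.24 ± 0.097 and 0.94 ± 0.088. HNRNPH3 was lower by 0.68 on its brightest probe set, and its 3 other probe sets were higher by 0.66 to 0.73.

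Genes that build ribosomes rose more often than they fell, with 26 of 46 higher and 6 lower (median 0.208). DDX10, a helicase of the small subunit pathway, read 10.99, 11 and 11.02, against 9.52, 9.64 and 9.61 (1.41 ± 0.053), RRP12 rose by 1.14, NOC3L by 0.8 and NOP2 by 0.73, and NOL9 (-0.97) and WDR3 (-0.44) fell. The ribosomal proteins themselves hardly moved, with a median of 0.042 and a range from -0.19 to 0.28, 13 of 52 higher and 1 lower. With centred arrays 35 of the 52 were higher. RPL3 and RPS9 rose by 0.28 each and RPL14 fell by 0.19. RPL38 was higher by 0.24 on its brightest probe set and -0.02 as the mean of its probe sets. Translation factors had 16 of 42 members higher and 13 lower (median 0.031), but 15 higher and 17 lower with quantile normalization (median -0.007). EIF2B3, a subunit of the exchange factor for eIF2, read 7.6, 7.56 and 7.52, against 8.84, 8.87 and 8.9 (-1.31 ± 0.042), and EIF5 fell by 1.07. EIF1B rose by 1.13 ± 0.05, EIF2S1 and EIF3G by 0.55 each and EIF3J by 0.51, though another probe set of EIF2S1 was called lower.

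Aminoacyl-tRNA synthetases, which charge tRNAs, were mostly lower, with 12 of 17 called lower and 2 higher (median -0.391). EPRS1 read 8.11, 8.34 and 8.25 with digoxin, against 9.75, 9.78 and 9.71 with DMSO (-1.51 ± 0.07), and CARS1 10.14, 10.23 and 10.18, against 11.24, 11.32 and 11.28 (-1.1 ± 0.046). NARS1 (-0.68) and TARS1 (-0.66) fell, and the scaffold AIMP1 (0.51) and VARS1 (0.3) rose. Several of these are targets of ATF4, the amino acid response factor, whose wider list had 18 of 36 members lower (50%) and 12 higher (33.3%, median -0.187). Only 4 of the 36 were dim, and of all genes that were not dim 38.3% were lower and 31.0% higher. With centred arrays 15 were lower and 14 higher, with a median of -0.1 against 0.1515 over all genes. XPOT, the tRNA exporter, fell by 1.63 ± 0.07 and ASNS, asparagine synthetase, by 1.28 ± 0.067, whereas PPP1R15A, TXNIP, ATF3 and SLC38A2 of the same list rose. TXNIP, which binds thioredoxin and restrains glucose uptake, read 12.66, 12.6 and 12.56 with digoxin, against 11.06, 10.94 and 10.91 with DMSO (1.64 ± 0.053), and its other probe sets rose by 2.1 and 2.35.

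Hypoxia targets fell more often than they rose, with 20 of 32 lower and 6 higher (median -0.344). Beside DDIT4 and BNIP3 the falls included MXI1 (-1.6 ± 0.11), which opposes MYC, VLDLR (-1.26 ± 0.12) and CA12 (-1.35 ± 0.13), a carbonic anhydrase with 1 of its probe sets higher by 0.23. ADM and the collagen-modifying enzyme gene PLOD2 (1.01 ± 0.067) rose. Of 23 glycolysis genes, none of them on that list, 9 were lower (39.1%) and 3 higher (13%, median -0.091). Only 2 were dim, and of all genes that were not dim 38.3% were lower and 31.0% higher. The share lower was thus near that of other genes. With centred arrays 7 were lower and 5 higher, and with quantile normalization 13 and 4. HK2 fell by 0.65, ENO2 by 0.44, PGK1 by 0.38 and PFKM by 0.35, while the glucose transporters SLC2A3 and SLC2A1 rose by 0.52 and 0.38. The MYC network, to which MXI1 belongs, had 3 of 12 members higher and 3 lower (8 and 3 with centred arrays). MNT (0.52) and the dim MXD1 (0.43) and MYCL (0.27) rose, and MXD3 (-0.38) fell.

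In mitochondria the respiratory chain differed little and leaned upwards. Of 31 complex I genes 13 were higher and 4 lower (median 0.069), and of 32 genes of complexes III to V 15 were higher and 2 lower (median 0.134), with all differences between -0.45 and 0.45. NDUFS1 (0.45), NDUFA13 (0.42), ATP5MG (0.31) and CYC1 (0.25) rose, and NDUFA8 (-0.45) and ATP5F1A (-0.3) fell. Mitochondrial ribosomal proteins had 16 of 46 lower and 12 higher (median -0.002), but 13 lower and 18 higher with centred arrays (median 0.084), from MRPL34 at -0.92 to MRPS18A at 0.73. In the citric acid cycle list, 9 of 23 were lower and 6 higher (median -0.036), but 8 lower and 10 higher with centred arrays (median 0.051). Beside IDH1, OGDH (-0.73), the citrate lyase gene ACLY (-0.66) and malic enzyme ME1 (-0.65) fell, and IDH3A of the mitochondrial isocitrate dehydrogenase (0.59) and DLST (0.47) rose.

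Peroxisomes, which break down very long fatty acids and house catalase, and the genes of fatty acid oxidation had 18 of 30 members lower and 5 higher (median -0.21). HSD17B4, a multifunctional enzyme of peroxisomal oxidation, read 7.34, 7.28 and 7.34, against 8.8, 8.86 and 8.83 (-1.51 ± 0.045). EHHADH (-1.65, dim), PEX6 (-1.3) and ETFDH (-1.2) fell, and PEX3 (0.39) and PEX19 (0.29) rose. CAT, catalase itself, read 8.13, 7.94 and 7.99, against 10.2, 10.12 and 10.12 (-2.13 ± 0.064), with its other probe sets at -1.98 and 0.04. It belongs to the list of NRF2 targets and antioxidant enzymes, of which 17 of 37 were lower and 7 higher (median -0.155). The share lower was 45.9%, with 1 dim member, against 38.3% of all genes that were not dim. AKR1C3, an aldo-keto reductase, fell by 1.58 ± 0.048 and GSR, glutathione reductase, by 0.8. NQO1, a standard NRF2 target, differed by -0.18 (adjusted p = 0.101), and OSGIN1 rose by 0.28. TXNIP, described above, is also on this list and had its largest rise, 1.64.

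Heme and iron genes were mostly lower, with 11 of 17 called lower and 2 higher (median -0.288). ALAD, which makes porphobilinogen, read 5.79, 5.3 and 5.46 in digoxin cells, against 7.57, 7.5 and 7.52 in DMSO cells (-2.02 ± 0.096). PPOX and FECH, the last enzymes of heme synthesis, fell by 1.19 and 0.73, and STEAP3, a ferrireductase, by 1.19. ACO1 (0.33), which is also an iron sensor, and BLVRB (0.28) rose. Fatty acid synthesis had 8 of 14 lower and 1 higher, and cholesterol synthesis 12 of 23 lower and 3 higher (medians -0.161 and -0.134). DHCR7 (-0.9 ± 0.055), MSMO1 (-0.76), HSD17B7 (-0.7), NSDHL (-0.58) and ELOVL6 (-0.36) fell, and FADS3 (0.62) and EBP (0.45) rose. SCD, stearoyl-CoA desaturase, was lower by 1.58 on its brightest probe set and higher by 0.27 on another. Polyamine and prostaglandin genes had 7 of 17 lower and 6 higher, and 6 and 6 with centred arrays. Within them ODC1, which makes putrescine, read 12.37, 12.44 and 12.42, against 11.22, 11.25 and 11.31 (1.15 ± 0.052), and SAT1, which acetylates polyamines for export, rose by 1.77 ± 0.077. The antizyme genes OAZ1 and OAZ2, whose proteins send ODC1 to the proteasome, fell by 0.73 ± 0.04 and 0.83 ± 0.057.

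Protein folding genes fell more often than they rose. Of 47 cytosolic chaperones 23 were lower and 9 higher (median -0.142), and of 27 chaperones of the endoplasmic reticulum 13 were lower and 6 higher (median -0.176). The shares lower were 48.9% and 48.1%, against 38.3% of all genes that were not dim. Dim members numbered 6 and 1. HSPB1 (-0.78), DNAJA1 (-0.75), CCT3 (-0.64) and the dim HSPA2 (-1.06) fell in the cytosolic list, and HSPA14 (0.5) rose. HSPA5, the main chaperone of the endoplasmic reticulum, read 11.25, 11.3 and 11.35, against 11.87, 11.93 and 11.96 (-0.62 ± 0.051), and XBP1 and MANF fell by 0.59 each and EDEM2 by 0.62. DNAJB9 (0.92 ± 0.06) and DNAJC3 (0.86 ± 0.084), cochaperones of HSPA5, rose. Proteasome subunits divided, with 12 of 33 higher and 9 lower (median -0.012, or 0.075 with centred arrays), and 11 and 11 with quantile normalization, from PSMD5 at -0.78 to PSME3 at 0.65.

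Autophagy genes stood out for their upward count, with 24 of 34 higher and 6 lower (median 0.288), against 28.0% of all genes higher. ATG12, which is conjugated to build the autophagosome membrane, read 9.82, 9.97 and 9.92 with digoxin, against 8.6, 8.64 and 8.79 with DMSO (1.22 ± 0.088). GABARAPL1 read 7.31, 7.26 and 7.32, against 6.28, 6.1 and 6.26 (1.08 ± 0.072), the transcription factor TFE3 rose by 0.78 and the cargo receptor SQSTM1 by 0.71. The kinase ULK2 (-0.76, dim) and the receptor CALCOCO2 (-0.56) fell. Lysosomal genes had 22 of 46 higher and 6 lower (median 0.146). NPC1, which exports cholesterol from lysosomes, rose by 1.06 ± 0.046, the sialidase gene NEU1 by 0.88, and the proton pump genes ATP6V0A1 and ATP6V1B2 by 0.75 each. The other probe set of NPC1 differed by 0.1 and was not called. LIPA, the acid lipase, read 8.1, 8.17 and 8.07, against 9.24, 9.24 and 9.21 (-1.12 ± 0.044), and ASAH1 fell by 0.75.

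Of 40 genes of the extracellular matrix, 16 were lower and 9 higher (median -0.079), and 12 and 12 with centred arrays (median 0.007). The collagen cross-linking enzyme LOXL1 read 5.23, 5.01 and 5.26, against 7.0, 7.04 and 6.98 (-1.84 ± 0.063), and its relative LOX 8.33, 8.04 and 8.16, against 8.98, 8.96 and 8.88 (-0.76). COL6A3 (-1.69 ± 0.14) and FBN1 (-1.16 ± 0.064) fell, and THBS1 (0.48) and LAMB3 (0.46) rose. Metalloproteinases and their inhibitors had 7 of 24 higher and 3 lower. MMP1, interstitial collagenase, rose by 1.22 ± 0.12, TIMP2 by 0.63, ADAMTS1 by 0.48 and ADAM19 by 0.36, and TIMP3 fell by 0.9. Among plasminogen activators and serpins 7 of 15 were lower and 5 higher (median -0.072, or 0.015 with centred arrays). PLAU, urokinase, read 9.2, 9.12 and 9.06, against 10.12, 10.12 and 10.12 (-0.99 ± 0.057), PLAT fell by 0.65 and thrombomodulin, THBD, by 1.38, and the inhibitor TFPI2 rose by 1.4 ± 0.091.

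Adhesion genes were divided as well. Of 18 integrin subunits 5 were higher and 4 lower, with ITGA2 at -0.99 and ITGB4 at -0.86 lower, and the 4 largest rises, of ITGB8, ITGA7, ITGA9 and ITGB7, all in dim genes at 0.17 to 0.46. Leaving out any array other than DMSO replicate 1 left 2 higher. In the hyaluronan list HAS2 was the only rise among 8 members, and 4 fell. CEMIP, which degrades hyaluronan, fell by 0.88, HYAL2 by 0.31 and HMMR by 0.27. CD44, the receptor, was lower by 0.57 on its brightest probe set, with 11.34, 11.26 and 11.22 in digoxin cells, against 11.84, 11.83 and 11.84 in DMSO cells, and higher by 0.9 on the next, with 11.8, 11.77 and 11.7, against 10.9, 10.83 and 10.83. Of its 7 other probe sets 6 were called higher, so the gene has no single direction here.

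Of 25 nuclear hormone receptors 8 were higher and 9 lower (median 0.167), but 13 were higher and 6 lower with centred arrays. NR3C1, the glucocorticoid receptor, rose by 0.69 ± 0.063 and NR2C2 by 0.86, and the oxysterol receptor NR1H3 fell by 1.34 ± 0.2, NR2F6 by 0.66, and NR2C1 and NR2F1 by 0.41 each. In the clock list of 16 genes 5 were higher and 5 lower, and 6 and 4 with centred arrays. The repressors PER2 (1.24 ± 0.1) and CRY1 (1.09 ± 0.074) rose with CSNK1D (0.77) and BMAL2 (0.71), and BHLHE40 (-0.85) and BHLHE41 (-0.52) fell. Of 8 genes of the aryl hydrocarbon receptor pathway 3 were higher and 1 lower. CYP1A1 read 6.67, 6.67 and 6.87, against 5.16, 5.38 and 5.21 (1.49 ± 0.1), TIPARP rose by 1.17 and CYP1B1 by 0.32. KRT19, a keratin of luminal epithelium, fell by 1.24 ± 0.073.

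Digoxin was also set against the other compounds directly, with the same digoxin arrays in each contrast. It differed from rotenone, an inhibitor of respiratory complex I, in 6039 genes (50.5%), of which 137 were 2-fold higher (1.15%) and 444 were 2-fold lower (3.71%). It differed from manassantin, a plant lignan, in 6781 genes (56.7%), of which 172 were 2-fold higher (1.44%) and 602 were 2-fold lower (5.03%). Digoxin was above DMSO, rotenone and manassantin in 2195 genes (18.3%) and below all of them in 2703 (22.6%). Of the 172 genes 2-fold higher against DMSO, 169 were also called higher against both other compounds, and of the 555 genes 2-fold lower, 554 were also called lower. The genes furthest above both were EGR1, CXCL8, IL11, IL6 and TXNIP, and those furthest below were IDH1, KRCC1, SH3TC2, PNMA8A and SLCO4A1. EGR1 was higher than with rotenone by 2.45 ± 0.15 and than with manassantin by 3.85, and IDH1 was lower by 3.19 ± 0.12 and by 3.62. For TXNIP the distance was wider than against DMSO, at 2.64 ± 0.053 from rotenone and 2.61 from manassantin, as means were 9.97 with rotenone and 10.0 with manassantin.

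Some named genes were not called higher with digoxin than with rotenone. H2BC21 averaged 6.93 with rotenone, above digoxin (digoxin minus rotenone -0.24 ± 0.085, adjusted p = 0.0314), and was the exception among the 4-fold rises. NR4A2 differed from rotenone by -0.06 ± 0.17 (adjusted p = 0.775), MMP1 by 0.19 ± 0.12 (adjusted p = 0.205) and BCL2L11 by 0.06 ± 0.067 (adjusted p = 0.458). Their differences from manassantin were 1.63, 0.44 and 0.65, all called. CYP1A1 was higher than with rotenone by 0.61 and than with manassantin by 0.8. IL24 stood 1.64 ± 0.13 above rotenone, where its mean was 6.02, and 2.63 above manassantin. ID2, which was 0.85 below DMSO, was 1.51 below rotenone and 0.42 below manassantin. The replication list had a median of 0.45 against rotenone, 0.157 against manassantin and 0.115 against DMSO, and MCM7 and CDC6 stood 0.85 and 1.06 above rotenone.

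**Figure D5:**
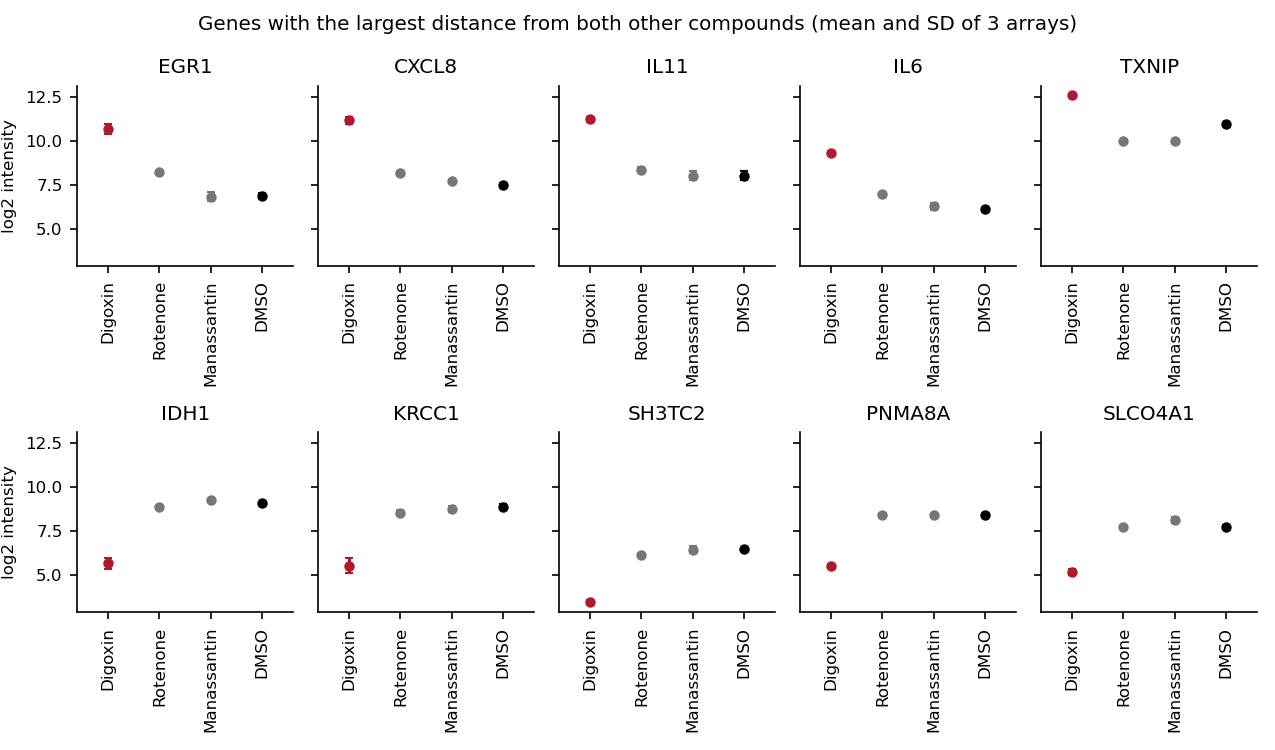
Mean log2 intensity (vertical axis) with SD of 3 arrays for digoxin, rotenone, manassantin and DMSO (horizontal axis), for the 5 genes furthest above and the 5 furthest below both other compounds. Digoxin stands alone in every panel because the genes were chosen for that distance. For TXNIP rotenone and manassantin lie below DMSO.

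Genes with several probe sets allowed a check within the arrays. Of 2560 called genes with more than 1 probe set, 1459 had another called in the same direction and none opposite, 806 had no other called and 295 had another called in the opposite direction. Where a gene named above is among the 806, its change rests on 1 probe set. Among those changed 2-fold or more the numbers were 228 of 319 with another in the same direction and 32 with another opposite. The leading rises with a second probe set, EGR1, CXCL8, IL11 (3.36), PPP1R15A (2.61) and MAFF (2.24), were higher on both. Probe sets of a gene read different parts of its transcripts, and which transcripts they read was not tested.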

How the data were processed

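RNA of 12 samples was measured on Affymetrix arrays. The deposited values are log2 probe set intensities, as the authors' table gives them; the background correction, summarisation and normalization behind them were not stated in the labels or headers. Array medians lay between 5.881 and 5.995, and the number of arrays limits the precision. Samples were grouped by title. Of 22277 probe sets, 62 controls were set aside, 19064 had exactly 1 gene symbol in the platform annotation, 1043 had several and 2108 none, and for each gene the brightest probe set by its 12-array mean was kept (11963 genes).

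Digoxin was compared with DMSO, rotenone and manassantin with limma 3.58.1 in R 4.3.3 (lmFit and eBayes, all 12 arrays, group as the only term, Benjamini-Hochberg adjustment over all genes). The fit was tested on simulated data with independent noise and few changed genes. These data differ from that setting, so the simulation does not bear on the counts given here. Named genes were the 20 largest changes in each direction among called genes without overlap, up to 4 leading members of each of 64 lists with up to 2 in the other direction, all sodium pump members, markers, controls, and the 5 genes in each direction furthest from both other compounds. The members and lists were chosen with earlier results of these data known, so no list is independent support. The result of 1 list is not reported here. Alternatives are given in the closing section. Replicate number was not a term of the main fit. Deviations of digoxin and DMSO arrays with the same number correlated at 0.158, 0.079 and 0.142. Those with different numbers correlated at -0.123 to -0.021, and the labels do not say whether arrays were paired.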

Additional observations from a re-analysis of the deposited data

How the results depend on the processing

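The number of genes called against DMSO, 6561, was 5240 to 7691 over the alternatives that kept all arrays and 1 probe set per gene or their mean, and 5881 to 6329 on leaving out 1 array. Leaving out 1 array gave 2867 to 3237 genes higher, 2988 to 3103 lower, 163 to 186 higher by 2-fold and 530 to 574 lower by 2-fold, and 5365 to 5797 and 6000 to 6759 genes called against rotenone and manassantin. With every probe set tested, 5189 were higher and 320 were 2-fold higher, as more features were tested. The replicate block gave 6784 calls, and every digoxin array correlated best with the DMSO array of its own number, a hint from the data and not from the design. Median centring moved the median of all genes to 0.1515 and quantile normalization to 0.0385. Of 392 named genes called, 362 kept sign and call under every alternative in which they were tested, at most 15. Dim genes were absent from the alternative that left them out, so that alternative did not test them. Averaging all probe sets per gene, the sign turned in ATP2A2 (-0.47), NRG1 (-0.19), H2AZ2 (0.05), CD44 (0.51), RPL38 (-0.02), HNRNPH3 (0.34) and AXL (0.25), where probe sets of the gene disagree. Counts of list members moved by more than 1.5 times in 85 cases and by less in 1835, mostly with centred arrays or with dim genes left out. Signal near the low end of the scale limits what can be said of dim genes.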

Other observations

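Calls were not spread evenly over chromosomes. Of 810 genes on chromosome 19, 36.3% were higher with digoxin and 17% lower, and of 451 genes on chromosome 10, 26.2% were higher and 37.9% lower, against 28.0% and 26.9% over all genes. These are descriptions, and gene length, signal level and copy number in this line were not compared with them.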
